A study of Mus musculus with 2 samples.

Results

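Collagen transcripts were counted in dispersed mouse islet cells for every gene whose symbol is Col, a number, a and a number. This rule on names gave 44 of the 27998 genes in the feature table, and no measured value entered it. UMIs (unique molecular identifiers, each standing for 1 captured transcript) were summed over the cell barcodes of 4 classes, called stromal, pericyte, endothelial and endocrine after their marker genes, in each library. The main contrast among the members was between the 11 chains of fibrillar collagens and the 6 chains of type IV, the collagen of basement membranes.

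Collagens are secreted or membrane-bound proteins whose alpha chains wind into a triple helix. Fibrillar collagens assemble into the cable-like fibrils of connective tissue, whereas type IV chains form the flat network of the basement membrane that lies beneath endothelium. Mouse islets are crossed by a dense capillary bed with such a membrane, and islet endocrine cells are known to rely largely on the vessels for it. Type VI chains form beaded microfilaments, the FACIT collagens decorate fibrils, and multiplexins and several transmembrane collagens are found at cell surfaces and basement membranes.

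Wildtype (WT) mice were compared with ghrelin knockout (GKO) littermates of line GKO1, born to heterozygous parents on the C57BL/6N background, fed chow and 8 weeks old. The knockout removes ghrelin, a hormone of stomach and islet cells. The islets of 4 mice were pooled for each genotype, so that each library mixes 4 animals that cannot be told apart. Pancreata of both genotypes were digested with collagenase, the islets were picked by hand and dispersed with Accutase, and live single cells were sorted before droplet capture. The values below are transcripts, so digestion of the matrix protein is not itself measured, and how well each cell type survived it cannot be told apart from how abundant that type was.

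The WT library held 158067110 UMIs in 7792 barcodes and the GKO library 103511757 UMIs in 7289 barcodes, of which 7100 and 6346 were kept for having 500 genes or more and no more than 10% of UMIs from mitochondrial genes. Ghrl, the deleted gene, had 43634 UMIs in WT (276 in counts-per-million units, CPM), 42984 of them in 6 barcodes, against 280 UMIs (2.71 CPM) in GKO. All 280 UMIs in GKO lay in 6 or fewer barcodes. A barcode was stromal with at least 0.3% of its UMIs from Dcn, Lum and Clec3b, pericyte with 0.5% from Rgs5, Acta2 and Tagln, endothelial with 0.3% from Plvap, Kdr, Flt1 and Emcn, and endocrine with 10% from the hormone genes Ins1, Ins2, Gcg, Sst and Ppy. Barcodes that met more than 1 rule, 110 in WT and 183 in GKO, were left out. This gave 251 and 579 stromal, 197 and 355 pericyte, 570 and 429 endothelial and 5465 and 3962 endocrine barcodes in WT and GKO. Markers outside the rules went with the labels: Pdgfra had 255 and 267 CPM in stromal barcodes and at most 0.99 in the other classes, Notch3 641 and 622 CPM in pericyte barcodes, and Cdh5 620 and 659 CPM in endothelial barcodes. Not all were as clean. The 6 outside stromal markers summed to 10982 and 18124 CPM in stromal but also 1124 and 1214 CPM in pericyte barcodes. The 5 endothelial ones had 4898 and 5293 CPM in endothelial and 492 and 560 CPM in pericyte barcodes. The 4 endocrine ones had 10183 and 11351 CPM in endocrine barcodes and at most 680 CPM in the other classes. The libraries shared 18 barcode names, 11 of them within the 4 classes of both.

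With 1 library per genotype there are no replicates, and no difference between GKO and WT could be tested against biological spread. Ratios of GKO to WT are therefore given on the log2 scale with exact 95% intervals that cover counting error only, and shares of barcodes with exact Clopper-Pearson intervals. CPM here is a gene's UMIs summed over the barcodes of a class and scaled by all UMIs of that class. Each transcript is counted once from its 3′ end, so CPM was not divided by transcript length, and levels of different genes also carry differences in capture.

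Of the 44 members, 38 had at least 20 UMIs over the 4 classes and both libraries. The other 6, Col2a1, Col9a1, Col10a1, Col17a1, Col22a1 and Col24a1, are mainly known from cartilage, skin and other tissues, and had between 1 and 16 UMIs in the classes. No member shares a strand and position with another counted gene. For 33 of the 38 members the class with the highest CPM was the same in both libraries. It was stromal for 22 of them (13.6% of all 16478 genes counted this way), pericyte for 3 (18.1%), endothelial for 5 (25.1%) and endocrine for 3 (17.2%). The highest class differed between the libraries for Col4a4, Col8a1, Col15a1, Col26a1 and Col28a1. The stromal share of the members was thus far above that of all genes, and the pericyte, endothelial and endocrine shares were below theirs.

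**Figure D1:**
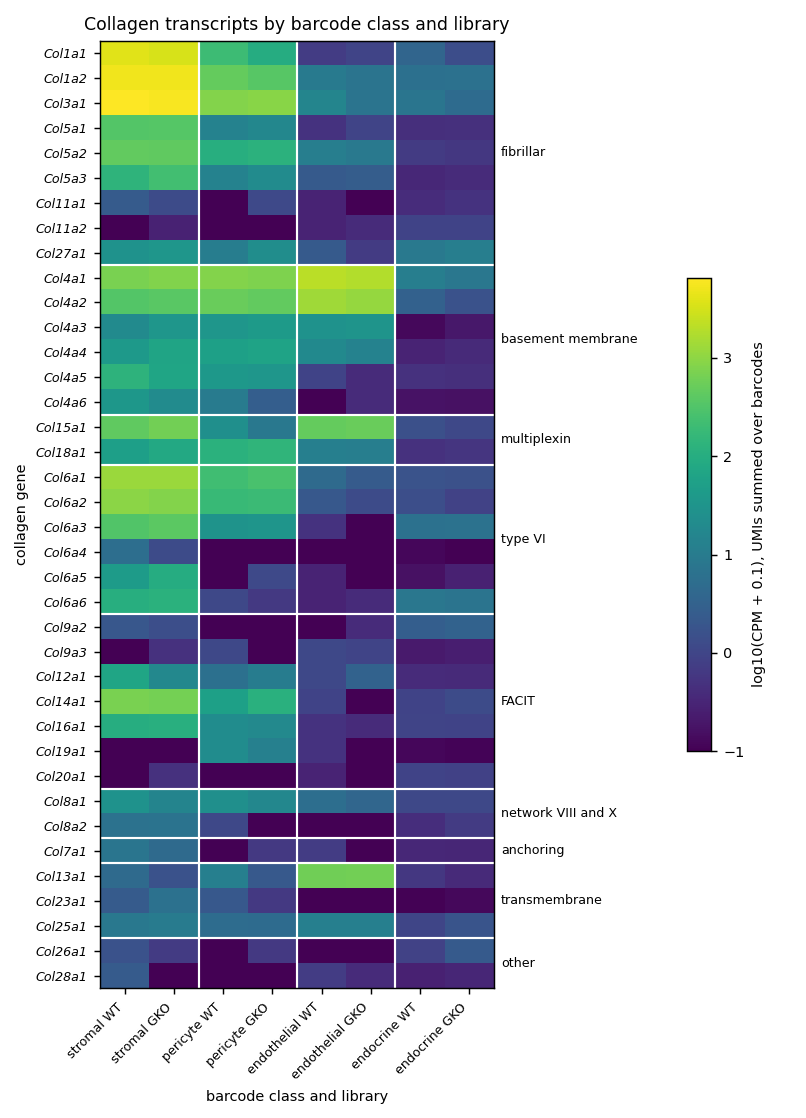
CPM of the 38 collagen genes with at least 20 UMIs (rows, grouped by structural list) in the 4 barcode classes of each library (columns), as log10(CPM + 0.1). The bright block at the upper left is Col1a1, Col1a2 and Col3a1 in stromal barcodes, and Col4a1, Col4a2, Col13a1 and Col15a1 stand out in endothelial barcodes.

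Collagens took 2.21% of all stromal UMIs in WT and 2.12% in GKO, against 0.388% and 0.376% in pericyte, 0.459% and 0.422% in endothelial and 0.00723% and 0.00665% in endocrine barcodes. Fibrillar chains made up 75.8% and 73.8% of the collagen UMIs of stromal barcodes, 43.0% and 41.5% in pericyte barcodes and 0.926% and 0.661% in endothelial barcodes. Type IV chains showed the opposite order, with 5.71% and 6.5% in stromal, 38.4% and 36.5% in pericyte and 74.7% and 71.8% in endothelial barcodes. The ratio of fibrillar to type IV UMIs in stromal barcodes was 13.3 in the WT library, with a 95% interval of 12.8 to 13.8, and 11.4 (11.1 to 11.6) in the GKO library. It was 1.12 (1.04 to 1.2) and 1.14 (1.08 to 1.2) in pericyte barcodes, and 0.0124 (0.0108 to 0.0142) and 0.00922 (0.00747 to 0.0113) in endothelial barcodes. The order of the 3 classes was the same in each library, and the gaps between classes were much wider than those between genotypes.

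**Figure D2:**
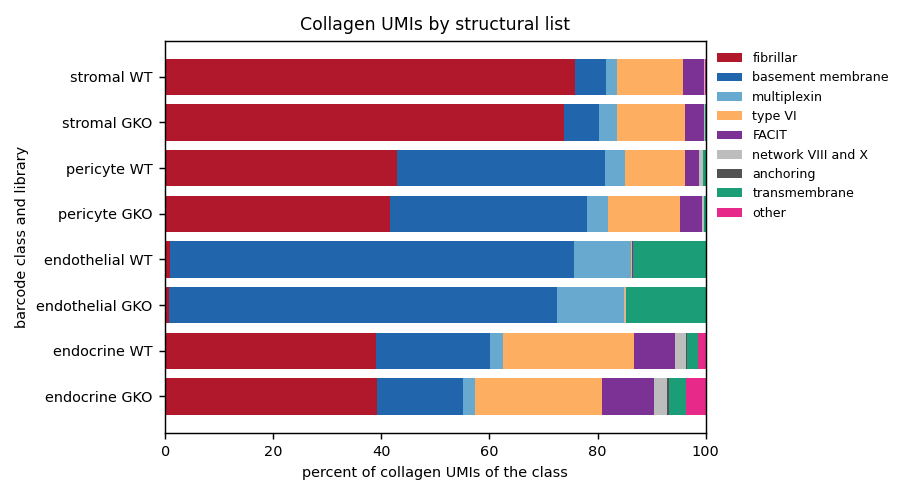
Share of each structural list in the collagen UMIs of a class, in percent, for each class and library. Fibrillar chains take 75.8% and 73.8% of the bar in stromal barcodes and type IV chains 74.7% and 71.8% in endothelial barcodes, while pericyte barcodes hold 43.0% and 41.5% of fibrillar and 38.4% and 36.5% of type IV chains.

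Shares also varied between single barcodes. In pericyte barcodes, fibrillar chains had a median of 0.0694% of UMIs in WT and 0.0886% in GKO. Type IV chains had 0.133% and 0.130% there, so these medians were ordered opposite to the sums. Fibrillar chains took a median of 1.53% of a stromal barcode's UMIs in WT and 1.31% in GKO, from 0.128% to 6.53% and from 0.0412% to 7.04%, and no stromal barcode lacked them. No fibrillar UMI was seen in 86.5% of endothelial barcodes of either library, at a median depth of 6986 UMIs in WT and 7266 in GKO. Macrophage barcodes, from cells that should not make fibrils, had Col1a2 UMIs in 4 of 195 barcodes in WT (2.05%, 0.562 to 5.17) and 9 of 448 in GKO (2.01%, 0.923 to 3.78), and endothelial barcodes in 2.98% (1.75 to 4.73) and 3.03% (1.62 to 5.13). Col1a2 was thus no more frequent in endothelial than in macrophage barcodes beyond counting error. Barcodes of at least 2000 UMIs were also thinned to 2000 UMIs, and those with fewer were left out of all thinned shares. The thinned shares were 0.513% and 0.449% in macrophage and 1.07% and 0.474% in endothelial barcodes, against 99.2% and 98.0% in stromal barcodes.

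The most abundant members in stromal barcodes were the chains of types I and III, which copolymerise in the fibrils of most soft tissues. Col3a1 had 6562 CPM in WT and 5904 in GKO. Col1a2, the second chain of type I, had 5273 and 5259 CPM. Col1a1, the major chain of type I, had 3966 and 3393 CPM. Type V, which sets fibril diameter, was one order of magnitude lower: Col5a2 had 467 and 438 CPM, Col5a1 339 and 350 CPM, and Col5a3 138 and 226 CPM. All 6 were highest in stromal barcodes in both libraries.

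Type VI chains divided into a common and a rare group. Col6a1 and Col6a2, the chains common to every type VI molecule, had 1235 and 1220 CPM and 959 and 834 CPM in stromal barcodes, and Col6a3, their usual partner, 328 and 394 CPM. The alternative partners were lower, with Col6a6 at 103 and 121 CPM, Col6a5 at 43.3 and 94.3 CPM and Col6a4 at 5.36 and 1.17 CPM. Pericyte barcodes held the common pair (Col6a1 221 and 269 CPM, Col6a2 176 and 195 CPM), but Col6a3 was present at only 0.135 (0.0887 to 0.198) and 0.118 (0.0893 to 0.155) UMIs per Col6a1 UMI, below the 0.266 (0.246 to 0.287) and 0.323 (0.307 to 0.340) of stromal barcodes. These intervals did not overlap between the classes in either library.

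Among the fibril-associated chains, Col14a1 had 705 and 643 CPM in stromal barcodes, Col16a1 102 and 110 CPM and Col12a1 66.7 and 18.0 CPM. Col19a1, known from muscle and from basement membrane zones, was highest of the 4 classes in pericyte barcodes, at 21.8 and 12.5 CPM from 22 and 24 of the 30 and 57 UMIs it had over all barcodes. The multiplexins, which carry heparan or chondroitin sulfate chains, divided between classes. Col15a1 had 431 and 613 CPM in stromal, 477 and 517 CPM in endothelial and 24.7 and 8.36 CPM in pericyte barcodes. Col18a1, the source of the fragment endostatin, was highest in pericyte barcodes at 121 and 140 CPM, against 52.1 and 81.4 CPM in stromal and 11.6 and 11.5 CPM in endothelial barcodes.

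The remaining members were low in all 4 classes. Col8a1, of the sheet-forming collagen beneath vascular and corneal endothelium, had 28.7 and 14.6 CPM in stromal and 24.7 and 16.7 CPM in pericyte barcodes, and Col8a2, its partner chain, 6.51 and 6.83 CPM in stromal barcodes. Col7a1, the anchoring fibril chain of skin, had 7.28 and 4.49 CPM there. Col9a3 had 40 UMIs over the 4 classes, Col23a1 43, Col28a1 53, Col11a1 89, Col20a1 174 and Col11a2 182, and Col20a1 and Col11a2 were highest in endocrine barcodes at 0.825 and 0.745 CPM and 0.825 and 0.848 CPM.

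Type IV chains come from gene pairs that lie head to head and point away from each other. On GRCm38 (mm10), the build of the files, the annotated start of Col4a2 on the plus strand of chromosome 8 (11312805) lies 21 bases from that of Col4a1 on the minus strand (11312826), so that the first bases of the genes overlap. Col4a3 (plus strand) and Col4a4 (minus strand) on chromosome 1 start 72 bases apart, and Col4a5 and Col4a6 on the X chromosome 1309 bases apart. The windows of Col4a1 and Col4a4 are given because each also holds the annotated start of the partner gene, and those of Col1a2 and Col13a1 because the former was abundant in stromal and the latter in endothelial barcodes. All are RefSeq windows of 300 bases on GRCm38.p6, from 250 bases before to 50 after the start, written 5′ to 3′ on the gene's strand; 35 of the 44 members had such a window. Capitals mark CCAAT and TATAAA on either strand, searched as these exact letters.
Col4a1, chr8:11312777-11313076, minus strand: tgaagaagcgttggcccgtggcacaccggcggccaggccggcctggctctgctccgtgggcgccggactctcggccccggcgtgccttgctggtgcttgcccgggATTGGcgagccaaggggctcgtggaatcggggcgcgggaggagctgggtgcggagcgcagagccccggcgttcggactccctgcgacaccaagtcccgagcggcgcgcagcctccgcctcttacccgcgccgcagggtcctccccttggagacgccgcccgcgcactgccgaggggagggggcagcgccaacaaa
Col4a4, chr1:82586800-82587099, minus strand: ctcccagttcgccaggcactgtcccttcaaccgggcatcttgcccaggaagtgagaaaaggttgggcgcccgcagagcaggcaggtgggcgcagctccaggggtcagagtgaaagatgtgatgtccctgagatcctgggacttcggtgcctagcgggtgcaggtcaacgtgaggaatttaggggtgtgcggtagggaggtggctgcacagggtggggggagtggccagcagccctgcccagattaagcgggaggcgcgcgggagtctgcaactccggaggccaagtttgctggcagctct
Col1a2, chr6:4505368-4505667, plus strand: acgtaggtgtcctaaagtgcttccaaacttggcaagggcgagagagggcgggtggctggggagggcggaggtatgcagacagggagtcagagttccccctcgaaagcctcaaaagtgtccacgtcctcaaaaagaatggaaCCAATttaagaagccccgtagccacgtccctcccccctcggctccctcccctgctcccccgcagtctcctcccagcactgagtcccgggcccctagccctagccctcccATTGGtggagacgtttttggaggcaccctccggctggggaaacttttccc
Col13a1, chr10:61979059-61979358, minus strand: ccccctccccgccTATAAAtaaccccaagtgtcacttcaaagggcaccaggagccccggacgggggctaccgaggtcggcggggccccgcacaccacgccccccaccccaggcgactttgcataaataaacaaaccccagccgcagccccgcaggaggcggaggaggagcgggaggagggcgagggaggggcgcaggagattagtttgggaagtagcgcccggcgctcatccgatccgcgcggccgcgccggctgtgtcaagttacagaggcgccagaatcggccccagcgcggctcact
CCAAT was found on either strand in 13 of the 38 windows of collagen genes (34.2%) and in 37.4% of all 32851 windows, and TATAAA in 5 (13.2%) and in 13.6%. The window of Col4a1 held 1 CCAAT match and no TATAAA, that of Col4a4 neither, that of Col1a2 2 CCAAT matches, and that of Col13a1 1 TATAAA match. The members' shares were close to those of all windows.

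Both chains of the first pair were highest in endothelial barcodes. Col4a1 had 2040 and 1837 CPM in endothelial, 828 and 771 CPM in pericyte and 700 and 797 CPM in stromal barcodes. Col4a2 had 1339 and 1146 CPM, 529 and 455 CPM, and 342 and 391 CPM. Col4a1 UMIs per Col4a2 UMI were 1.52 (1.48 to 1.57) and 1.60 (1.54 to 1.67) in endothelial, 1.57 (1.40 to 1.75) and 1.70 (1.56 to 1.85) in pericyte, and 2.04 (1.89 to 2.22) and 2.04 (1.93 to 2.15) in stromal barcodes. The stromal ratio was above the endothelial one in both libraries with no overlap of intervals.

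The pair Col4a3 and Col4a4, whose chains are best known from the kidney glomerulus, was lower and highest in one group of pericyte barcodes. Pericyte barcodes were divided by which of their markers led, a division made after their values were seen. Barcodes led by Rgs5 (124 in WT, 215 in GKO), a gene of capillary pericytes, had Col4a3 at 51.9 and 72.2 CPM and Col4a4 at 83.5 and 119 CPM. Barcodes led by Acta2 and Tagln (73 and 140), genes of contractile smooth muscle, had Col4a3 at 12.7 and 12.7 CPM and Col4a4 at 21.2 and 6.35 CPM. Stromal barcodes had Col4a3 at 19.9 and 33.2 CPM and Col4a4 at 38.7 and 64.4 CPM. The chains of this pair were not held in 1 ratio: Col4a3 UMIs per Col4a4 UMI were 0.515 (0.361 to 0.726) and 0.515 (0.426 to 0.622) in stromal barcodes but 1.48 (1.13 to 1.94) and 2.30 (1.62 to 3.31) in endothelial barcodes. The third pair, expressed in many epithelial basement membranes, was mostly stromal here, with Col4a5 at 128 and 68.7 CPM and Col4a6 at 34.9 and 20.7 CPM, and both were near 0 in endothelial barcodes (4 and 1 UMIs of Col4a5, 0 and 1 of Col4a6).

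**Figure D3:**
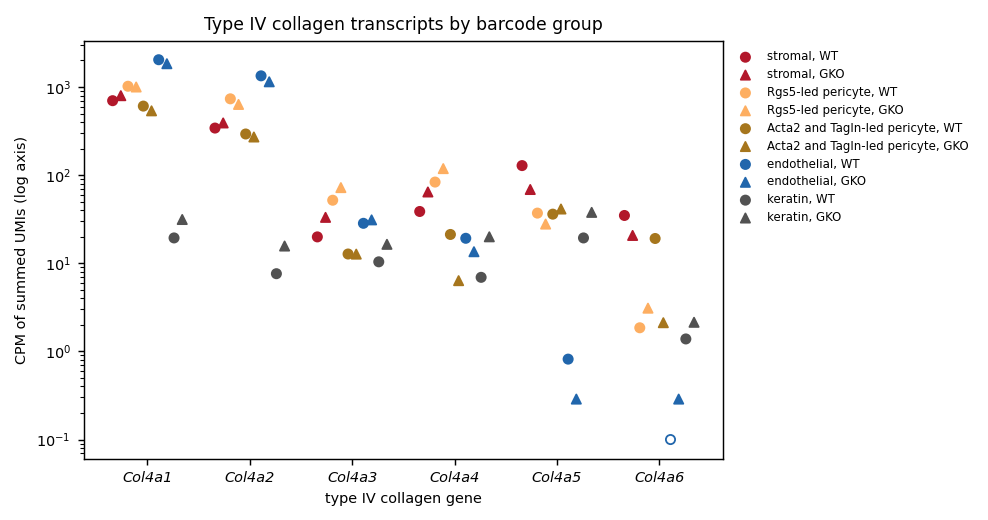
CPM of the 6 type IV chains (log axis) in stromal and endothelial barcodes, in keratin barcodes (no class rule met, at least 0.05% of UMIs from Krt19, Sox9 and Muc1) and in pericyte barcodes divided by leading marker, with circles for WT and triangles for GKO. Open symbols at the bottom stand for 0. Col4a1 and Col4a2 are highest in endothelial barcodes, Col4a4 in the pericyte barcodes led by Rgs5 and Col4a6 in stromal barcodes.

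The pericyte barcodes also differed in their summed fibrillar chains. Those led by Acta2 and Tagln had 2.30 (2.06 to 2.57) and 2.14 (1.97 to 2.33) fibrillar UMIs per type IV UMI, and those led by Rgs5 0.590 (0.533 to 0.653) and 0.680 (0.632 to 0.732). The median barcode led by Acta2 and Tagln did not show this excess. Its fibrillar share was 0.0474% and 0.0512% of UMIs, under its type IV share of 0.0672% and 0.0673%. The fibrillar median of Rgs5-led barcodes was higher, at 0.0819% and 0.110%. Single barcodes led by Acta2 and Tagln reached 2.15% in WT and 1.02% in GKO. Col1a1 had 403 and 174 CPM in barcodes led by Acta2 and Tagln and 29.7 and 17.5 CPM in those led by Rgs5. Of its 206 UMIs in WT pericyte barcodes, 100 lay in 1 barcode. Col1a2 differed less, at 584 and 353 CPM against 377 and 393 CPM. The Rgs5-led barcodes thus held only 0.0788 (0.0442 to 0.131) and 0.0446 (0.0257 to 0.0724) Col1a1 UMIs per Col1a2 UMI, where stromal barcodes held 0.752 (0.733 to 0.771) and 0.645 (0.633 to 0.658). Col14a1 was at 117 and 225 CPM in barcodes led by Acta2 and Tagln, with 0 and 3 UMIs in those led by Rgs5.

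Beside the type IV chains and Col15a1, endothelial barcodes held 1 further collagen at high level. Col13a1, a membrane-spanning collagen of cell contacts, had 600 CPM in WT and 611 in GKO, against 4.60 and 1.56 CPM in stromal and 11.9 and 2.09 CPM in pericyte barcodes. It was found in 511 of 570 endothelial barcodes in WT (89.6%, 86.9 to 92) and 378 of 429 in GKO (88.1%, 84.7 to 91.0), and in 38 of 5465 and 13 of 3962 endocrine barcodes (0.695%, 0.493 to 0.953, and 0.328%, 0.175 to 0.560), at endocrine median depths of 19766 and 14355 UMIs. Thinned to 2000 UMIs, the shares were 60.4% and 64.5% of endothelial and 0.0733% and 0.0253% of endocrine barcodes. Col25a1, another transmembrane collagen, had 12.1 and 11.8 CPM there. Of the 30 members compared between stromal and endothelial barcodes, 24 were at least 2-fold higher in stromal barcodes in both libraries (16.1% of all genes) and 3, Col4a1, Col4a2 and Col13a1, in endothelial barcodes (16.9%).

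The comparison of GKO with WT asked whether loss of ghrelin went with a different collagen make-up of each class. Summed fibrillar chains in stromal barcodes had 16776 CPM in WT and 15606 in GKO, a log2 ratio of −0.10 (−0.12 to −0.09), and type IV chains 1264 and 1375 CPM, a ratio of 0.12 (0.06 to 0.18). Type IV chains in endothelial barcodes had 3427 and 3028 CPM (−0.18, −0.21 to −0.14) and in pericyte barcodes 1491 and 1369 CPM (−0.12, −0.21 to −0.03). Fibrillar chains in pericyte barcodes had 1668 and 1560 CPM (−0.10, −0.18 to −0.01). Each of these differences was small, and 2 of the signs turned with the choice of barcodes. The pericyte fibrillar ratio was 0.37 when barcodes meeting more than 1 rule were kept and 0.51 when every threshold was 2 times as high. The stromal type IV ratio was −0.05 with those thresholds and −0.01 with every barcode weighted alike, a setting that gave 0.14 for the pericyte fibrillar ratio. The barcodes meeting both the stromal and the pericyte rule numbered 13 in WT and 82 in GKO.

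Among 30 members with at least 20 UMIs in stromal barcodes, 2 were 2-fold or more higher in GKO (3.81% of all genes) and 3 were 2-fold or more lower (2.99%), and their median log2 ratio was 0.06 against 0.09 over all 11432 genes. Col12a1, a FACIT of dense connective tissue and of stretched or injured tissue, had 174 UMIs (66.7 CPM) in WT and 92 (18.0 CPM) in GKO, a log2 ratio of −1.89 (−2.27 to −1.52). It was found in 26.3% of stromal barcodes in WT (21.0 to 32.2) and 9.67% in GKO (7.39 to 12.4), and its ratio lay between −1.99 and −1.74 under all 10 alternatives. Postn, which encodes the matrix protein periostin, had 384 and 92.9 CPM (−2.05, −2.21 to −1.89) in the same barcodes. Col6a4 (14 and 6 UMIs) and Col13a1 (12 and 8 UMIs) were lower in GKO by −2.20 and −1.56 on the log2 scale, on few UMIs. Col6a5 was higher, with 113 UMIs (43.3 CPM) in WT and 483 (94.3 CPM) in GKO, a ratio of 1.12 (0.82 to 1.43). Its UMIs were held by few barcodes: 38 of 251 and 113 of 579 had any, and the 20 richest held 83.2% and 64.8% of them.

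Col23a1, a transmembrane collagen, had 6 and 31 UMIs (1.40, 0.11 to 2.95). Differences short of 2-fold, with intervals on 1 side of 0, went in opposite directions for the type IV pairs of stromal barcodes. Col4a3 and Col4a4 had ratios of 0.74 (0.28 to 1.21) and 0.73 (0.41 to 1.07), and Col4a5 and Col4a6 of −0.90 (−1.12 to −0.68) and −0.75 (−1.17 to −0.33). Col5a3 had a ratio of 0.71 (0.54 to 0.88), Col18a1 of 0.64 (0.36 to 0.93) and Col15a1 of 0.51 (0.41 to 0.61). Col8a1 was lower in GKO, with a ratio of −0.97 (−1.45 to −0.49) from 75 and 75 UMIs. Of these, 92% and 80% lay in the 20 richest barcodes. The make-up of the stromal class also differed between the libraries. The 6 stromal markers outside the rule summed to 10982 CPM in WT and 18124 in GKO, with 5 of 6 higher and Gsn alone at 7476 and 13976 CPM, and the genes of the pericyte rule to 521 and 257 CPM. The 4 endocrine markers summed to 332 and 680 CPM with 4 of 4 higher, and the 3 duct markers to 42.2 and 105 CPM with 3 of 3 higher. The 5 hormone genes of the endocrine rule went the other way, at 8947 and 7334 CPM with 1 of 5 higher. So did the 4 acinar markers, at 228 and 154 CPM with 0 of 4 higher. The doublet score marked 5.18% and 9.84% of the barcodes. Barcodes with at least 0.05% of their UMIs from the mesothelial markers Msln, Upk3b and Wt1 numbered 5 and 26. Their part in the ratios was not tested for the whole list, but without those barcodes the ratio of Col12a1 was −1.85 and that of Col6a5 1.39.

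Of 22 members in pericyte barcodes, 2 were 2-fold or more higher in GKO (3.51% of all genes) and 2 lower (1.62%), with a median log2 ratio of 0.12 against 0.03 over all 9460 genes. Col14a1 had 55 UMIs (54.4 CPM) in WT and 216 (113 CPM) in GKO, a ratio of 1.05 (0.62 to 1.51), and Col27a1 11 and 43 UMIs (1.04, 0.06 to 2.15). The Col14a1 UMIs lay in 13 of 197 and 55 of 355 barcodes, with 100% and 72.7% of them in the 20 richest. Col15a1 had 25 and 16 UMIs (−1.57, −2.57 to −0.60). Col1a1 had 206 and 181 UMIs, 204 and 94.5 CPM (−1.11, −1.41 to −0.81), but 100 of the 206 UMIs in WT came from 1 barcode. Col19a1 had a ratio of −0.80 (−1.69 to 0.11) and Col12a1 of 0.81 (−0.55 to 2.42), each interval spanning 0, and Col3a1, the highest member there at 849 and 907 CPM, of 0.09 (−0.02 to 0.21). The Col1a1 ratio was 0.12 when barcodes meeting more than 1 rule were kept and 0.06 with thresholds 2 times as high. That of Col3a1 lay between −0.04 and 0.81 under 9 alternatives, and its 20 richest barcodes held 70.5% and 38.4% of its UMIs. Transcripts of exocrine cells differed too: the 4 acinar markers summed to 881 CPM in WT and 3007 in GKO pericyte barcodes, and their part in these ratios was not tested.

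Of 14 members in endothelial barcodes, 0 were 2-fold or more higher in GKO (1.01% of all genes) and 1, Col3a1, was lower (3.27%), with a median of −0.19 against 0.03 over all 10957 genes. Col3a1 had 77 and 24 UMIs, 15.7 and 6.91 CPM (−1.19, −1.91 to −0.51), and 24 of its 77 UMIs in WT lay in 1 barcode. The abundant members differed little: Col4a1 had a ratio of −0.15 (−0.20 to −0.11), Col4a2 of −0.23 (−0.28 to −0.17), Col15a1 of 0.12 (0.03 to 0.21) and Col13a1 of 0.03 (−0.05 to 0.11). Intervals spanned 0 for Col5a3 (0.20, −1.25 to 1.61), Col4a3 (0.13, −0.25 to 0.50), Col6a1 (−0.97, −2.34 to 0.26) and Col8a1 (−0.51, −1.59 to 0.51). The 4 acinar markers summed to 942 CPM in WT and 236 CPM in GKO endothelial barcodes, and their part in these ratios was not tested.

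**Figure D4:**
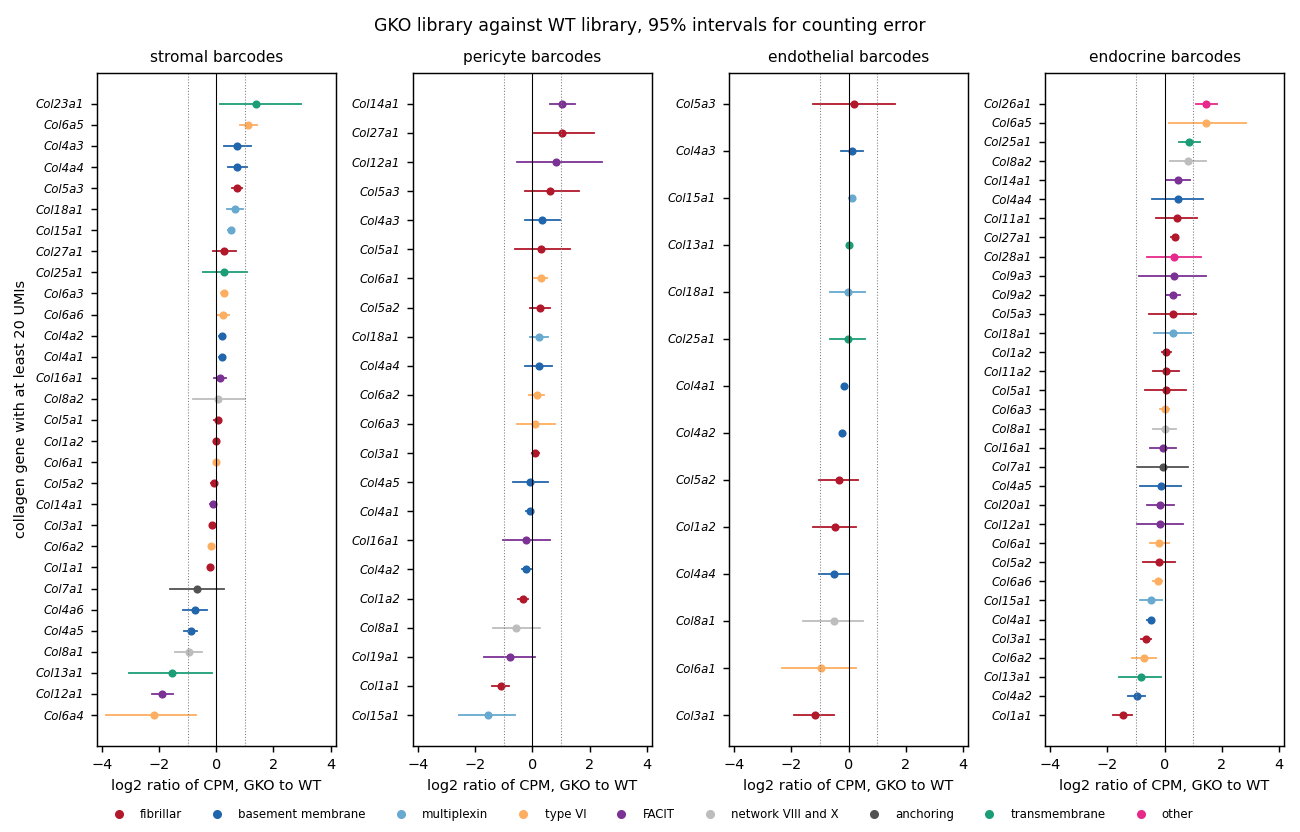
Log2 ratio of CPM, GKO to WT, for each collagen gene with at least 20 UMIs in a class, with 95% intervals for counting error and colours for the structural lists. Dotted lines mark 2-fold. Most members lie within 2-fold, and Col12a1 in stromal barcodes lies below it at −1.89 with a narrow interval.

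Endocrine barcodes held collagen UMIs at 72.3 CPM in WT and 66.5 in GKO, and 42.5% and 45.2% of them held none. Hormones took 49.9% of the endocrine UMIs in WT and 41.8% in GKO, and the median log2 ratio over all 15725 genes was 0.23. The highest members were Col27a1 (8.90 and 11.4 CPM), Col4a1 (11.4 and 8.15 CPM) and Col6a6 (8.11 and 6.89 CPM). Barcodes in which 1 hormone made up at least 80% of the hormone UMIs were then taken apart by that hormone, a division made after the values were seen.

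Barcodes led by different hormones held different collagens, in both libraries. Insulin-led barcodes (2123 in WT, 806 in GKO) had Col6a3 at 10.0 and 15.5 CPM and Col6a6 at 11.2 and 13.0 CPM, while glucagon-led barcodes (883 and 1224) had at most 0.535 CPM of either. Somatostatin-led barcodes held Col6a6 too, with 48 and 47 UMIs in 43 of 921 and 37 of 689 barcodes. All type VI chains together had 5.94 and 8.52 CPM in somatostatin-led barcodes. Col6a6 was found in 31.3% of insulin-led barcodes in WT (29.3 to 33.3) and 32.9% in GKO (29.6 to 36.2), in 0.453% (0.124 to 1.16) and 0.327% (0.0891 to 0.835) of glucagon-led barcodes and in 1.03% and 0% of macrophage barcodes (up to 3.66% and 0.820%). Median depths were 37069 and 35811 UMIs in insulin-led, 11731 and 11636 in glucagon-led and 10345 and 8873 in macrophage barcodes, and thinned to 2000 UMIs the Col6a6 shares were 2.78% and 2.85% in insulin-led against 0% and 0.0818% in glucagon-led barcodes.

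These partner chains outnumbered the common chain Col6a1 in insulin-led barcodes. Insulin-led barcodes had 4.70 (3.99 to 5.55) and 11.4 (8.25 to 16.0) Col6a3 UMIs per Col6a1 UMI, against 0.266 and 0.323 in stromal barcodes. Their Col6a6 UMIs per Col6a1 UMI were 5.26 (4.48 to 6.21) and 9.54 (6.90 to 13.5), against 0.0838 and 0.0989 in stromal barcodes. Col6a3, Col6a6 and Col27a1 were also spread widely, with 11.1% and 15.7%, 7.37% and 13.6%, and 7.87% and 10.1% of their endocrine UMIs in the 20 richest barcodes. Col1a1 and Col3a1 were not, with 82.8% and 49.0%, and 76.7% and 45.8%. Nor was Col6a1 within insulin-led barcodes, where the 20 richest held 82.0% and 85.4% of its UMIs. The size of the ratios to Col6a1 thus depends on few barcodes.

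Among barcodes with a leading hormone, those led by glucagon had the highest Col27a1, a chain of short fibrils known from cartilage, at 33.1 and 27.2 CPM. Somatostatin-led barcodes (921 and 689) had 14.5 and 14.4 CPM, insulin-led 5.66 and 7.08 CPM and pancreatic polypeptide-led barcodes (587 and 569) 0.495 and 0.699 CPM. Col27a1 was found in 27.2% (24.3 to 30.2) and 24.1% (21.7 to 26.6) of glucagon-led and in 1.02% (0.376 to 2.21) and 1.58% (0.726 to 2.98) of pancreatic polypeptide-led barcodes, although the latter were deeper, with medians of 21737 and 21067 UMIs. Macrophage barcodes held it too, at 17.9 and 13.1 CPM.

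The remaining members of this kind were lower. Col26a1, a poorly known secreted collagen, had 6.77 and 9.15 CPM in glucagon-led and at most 0.532 CPM in the other barcodes with a leading hormone. Somatostatin-led barcodes led for Col9a2, a FACIT of cartilage, with 9.47 and 8.78 CPM, and for Col25a1, known from neurons, with 4.55 and 9.18 CPM. Pancreatic polypeptide-led barcodes led for Col11a1, a cartilage fibril chain, with 2.12 and 2.25 CPM from 30 and 29 UMIs. Col1a2 in glucagon-led barcodes had 9.45 and 12.6 CPM with only 0.189 (0.111 to 0.306) and 0.109 (0.0662 to 0.172) Col1a1 UMIs per Col1a2 UMI, well under the stromal 0.752 and 0.645. Col4a1 in insulin-led barcodes had 15.4 and 13.3 CPM with 4.2 (3.70 to 4.77) and 8.89 (6.52 to 12.4) UMIs per Col4a2 UMI, above the 1.52 to 2.04 of the other classes. The size of this ratio depends on few barcodes: the 20 richest held 71.3% and 95.6% of the Col4a2 UMIs and 26.5% and 30.3% of the Col4a1 UMIs.

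**Figure D5:**
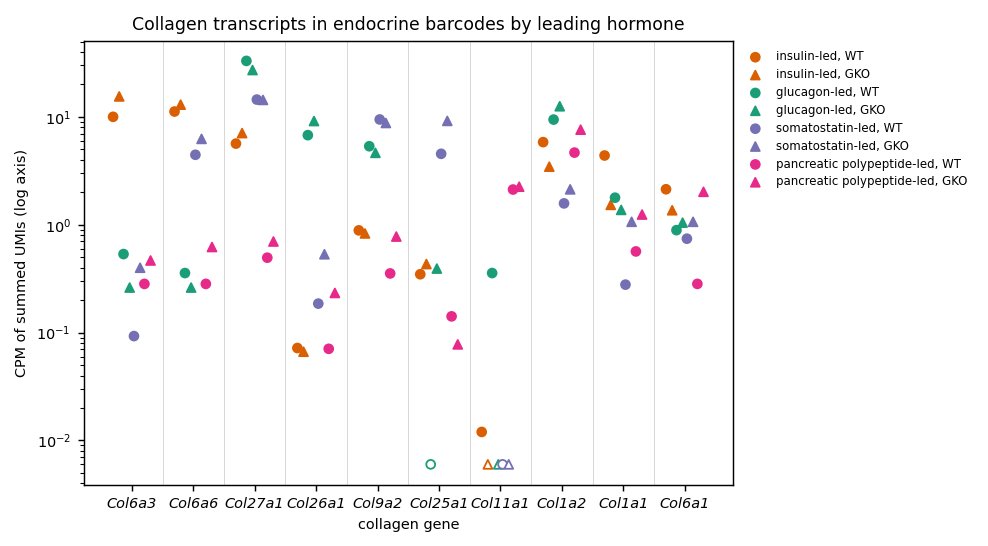
CPM (log axis) of 10 collagen genes in endocrine barcodes grouped by the hormone that leads them, with circles for WT and triangles for GKO; open symbols at the bottom stand for 0. Col6a3 and Col6a6 are highest in insulin-led, Col27a1 and Col26a1 in glucagon-led and Col25a1 and Col9a2 in somatostatin-led barcodes.

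All collagens together had a log2 ratio of −0.12 (−0.17 to −0.07) in endocrine barcodes, GKO to WT. This sign turned with the choice of barcodes. The ratio was 0.07 without the 20 barcodes of each library richest in fibrillar UMIs. It was 0.12 without the 412 and 273 barcodes of highest doublet score, and 0.35 with barcodes meeting more than 1 rule kept. Of 33 members, 2 were 2-fold or more higher in GKO (2.76% of all genes) and 1 lower (1.4%), with a median of 0.01, below the 0.23 of all genes. Col26a1 had 111 and 174 UMIs (1.47, 1.11 to 1.82) and Col6a5 9 and 14 UMIs (1.45, 0.14 to 2.84), while Col1a1 had 488 and 100 UMIs (−1.47, −1.80 to −1.16). Next in size were Col25a1 (0.86, 0.50 to 1.23), Col4a2 (−0.97, −1.28 to −0.68) and Col13a1 (−0.83, −1.60 to −0.12). The 20 richest barcodes held 54.5% and 58.2% of the Col4a2 UMIs and 73.9% and 100% of the Col13a1 UMIs. In endocrine barcodes the 4 genes of the endothelial rule summed to 20.9 and 10.5 CPM, with 0 of 4 higher in GKO. Those of the pericyte rule summed to 12.5 and 26.2 CPM, with 3 of 3 higher. Their part in these ratios was not tested. The ratio of Col1a1 was 0.25 without the 20 richest barcodes and 0.59 with barcodes meeting more than 1 rule kept. The mix of endocrine cells differed between the libraries, with glucagon-led barcodes 12.4% of all kept barcodes in WT and 19.3% in GKO and insulin-led 29.9% and 12.7%. The groups did not share 1 direction: all collagens had 80.96 and 74.79 CPM in insulin-led (−0.11, −0.18 to −0.05), 84.8 and 79.5 CPM in glucagon-led (−0.09, −0.22 to 0.03), 53.7 and 64.4 CPM in somatostatin-led (0.26, 0.09 to 0.44) and 16.2 and 33.3 CPM in pancreatic polypeptide-led barcodes (1.04, 0.80 to 1.28). Few barcodes held most Col1a1 and Col3a1 UMIs of insulin-led barcodes: the 20 richest had 88.3% and 85.0% in WT, and 87.0% and 65.4% in GKO. Fibrillar chains there had a ratio of −0.54 (−0.67 to −0.41), and type VI chains of 0.29 (0.18 to 0.40). The insulin-led ratio without those barcodes was not tested. Type VI chains in pancreatic polypeptide-led barcodes had 14 and 57 UMIs (2.16, 1.30 to 3.12). Few barcodes held much of this in GKO: the 26 Col6a1 UMIs of that group lay in 15 of 569 barcodes, 9 of them in 1 barcode. Of its 74 Col3a1 UMIs in GKO, 17 lay in 1 barcode. Within glucagon-led barcodes Col26a1 had 76 and 140 UMIs at 6.77 and 9.15 CPM, a smaller gap than over the whole class.

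Genes that modify, process, degrade and bind collagen were counted in the same sums. Of 17 counted genes of chain modification and folding, 13 were highest in stromal barcodes in both libraries (13.6% of all genes). Among them was Serpinh1, the collagen chaperone, at 2613 and 2588 CPM, against 744 and 647 CPM in endothelial barcodes. All but 2 of the 12 genes of processing and cross-linking were highest in stromal barcodes too (13.6% of all genes). They were led by Pcolce, an enhancer of procollagen cleavage, at 1197 and 1560 CPM. Among receptors, Ddr2 (144 and 194 CPM) and Itga11 were highest in stromal barcodes in both libraries. Itgb1, the shared integrin beta chain, was highest in pericyte barcodes (757 and 726 CPM), as was Itga10. Itga1 was highest in endothelial and Ddr1 in endocrine barcodes. In GKO against WT, of 50 such genes counted in stromal barcodes 2 were 2-fold or more higher (3.81% of all genes) and 1 lower (2.99%), numbers near the shares of all genes. They were Colgalt2 (3 and 18 UMIs, 1.61, −0.16 to 4.02), Mmp9 (5 and 32 UMIs, 1.70, 0.33 to 3.42) and Postn. Of 42 in pericyte barcodes, 1 was higher (3.51%), Timp4 (4 and 23 UMIs, 1.60, 0.05 to 3.59), and 1 lower (1.62%), Timp1 (24 and 3 UMIs, −3.92, −6.30 to −2.20). Of 35 in endothelial barcodes, 0 were higher (1.01%) and 2 lower (3.27%), Timp1 (15 and 5 UMIs, −1.09, −2.91 to 0.44) and Ddr2 (18 and 4 UMIs, −1.68, −3.70 to −0.07). Of 50 in endocrine barcodes, 2 were higher (2.76%), Mmp9 (12 and 44 UMIs, 2.69, 1.75 to 3.75) and Fn1, which encodes fibronectin (55 and 260 UMIs, 3.06, 2.63 to 3.5). The 3 lower there (1.4%) were Mmp2 (−1.26, −1.92 to −0.65), Nid2 (−1.42, −2.51 to −0.47) and Mmp13 (−1.03, −2.82 to 0.45). Several of these were trace levels in endocrine barcodes. Mmp2 had 0.832 and 0.347 CPM there against 634 and 572 CPM in stromal barcodes, and Fn1 0.401 and 3.34 CPM against 372 and 501 CPM. Nid2 had 0.379 and 0.141 CPM against 212 and 170 CPM in endothelial barcodes. The part of transcripts from other cells in these ratios was not tested. The intervals of Colgalt2, of Timp1 in endothelial barcodes and of Mmp13 spanned 0. In stromal barcodes Pcolce and Adamts2, an N-propeptidase of procollagen, had ratios of 0.38 (0.32 to 0.44) and 0.59 (0.45 to 0.74). Beside these, Col1a1 and Col3a1 had ratios of −0.22 (−0.26 to −0.19) and −0.15 (−0.18 to −0.13), and Col1a2 of −0.004 (−0.034 to 0.026).

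The most abundant of these genes were within 2-fold between the libraries. Sparc, a collagen-binding protein of the matrix, led its list in every class and had ratios of 0.05 in stromal, 0.03 in pericyte, −0.01 in endothelial and −0.45 in endocrine barcodes. Timp3, an inhibitor of matrix proteases, had 3320 and 2658 CPM in endothelial barcodes (−0.32, −0.36 to −0.28) and 1610 and 1370 CPM in pericyte barcodes (−0.23, −0.32 to −0.14), and Timp2 had 999.7 and 1279 CPM in stromal barcodes (0.36, 0.29 to 0.42). Lox, which cross-links collagen, had a ratio of 0.86 (0.03 to 1.76) in pericyte barcodes from 16 and 55 UMIs. P4hb, a subunit of prolyl hydroxylase, led the folding genes of endocrine barcodes with 203 and 194 CPM (−0.06, −0.09 to −0.03). In lists with no gene past 2-fold, P3h2 had a ratio of 0.70 and Bmp1 of −0.57 in endocrine, Bgn of −0.56 in endothelial and Fn1 of 0.81 in pericyte barcodes, each with an interval on 1 side of 0.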

How the data were processed

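Dispersed islet cells of 1 WT and 1 GKO pool were profiled by 10x Genomics droplet sequencing of transcript 3′ ends. The authors mapped reads with STAR and counted UMIs with Cell Ranger 5.0.1 (mm10), down-sampling reads as required, and the deposited values are these UMI counts per gene and barcode, without ambient RNA removal. No other columns were used. Barcodes of 500 genes or more, with up to 10% of UMIs from mitochondrial genes, were assigned by marker shares to 6 exclusive groups (the 4 classes, macrophage and glial, the last of which is not reported here), and barcodes meeting 2 or more rules were left out as possible doublets. An artificial-doublet neighbour score (top 7.6% per library) was an alternative. The endocrine threshold of 10% hormone UMIs was chosen here. UMIs were summed per class and library. Exact 95% intervals of ratios came from the binomial distribution of 2 Poisson sums, with 0.5 counts added where 1 sum was 0. Intervals were tried on simulated Poisson sums only, which cannot show how they behave under spread between barcodes or animals. Depth was 158067110 and 103511757 UMIs. No p-value was computed, because each genotype was 1 library.

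Members, lists and thresholds were chosen with earlier results of these data known. Given in full were the 3 members highest in CPM in each class, the 3 with the highest and the 3 with the lowest ratio of GKO to WT among those with at least 20 UMIs in the class, and Ghrl; of each list of pathway genes, the highest and the largest change. Other members were named for their structural group or after their values were seen, as were the divisions by leading hormone, by leading pericyte marker, by mesothelial markers and by Krt19, Sox9 and Muc1. Positions came from GENCODE vM21. Alternatives were other limits on barcodes, stricter class rules, other totals (TMM scaling from edgeR 4.0.16 in R 4.3.3) and equal weight per barcode; sums used numpy 2.4.6, scipy 1.17.1 and pandas 2.3.3 in Python 3.11.15.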

Additional observations from a re-analysis of the deposited data

Results flagged for a closer look

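Col15a1 had a log2 ratio of GKO to WT of 0.51 in stromal and −1.57 in pericyte barcodes, each with a counting interval on its own side of 0. The difference between the classes was not tested, since each genotype was 1 library, and the pericyte value rests on 25 and 16 UMIs.

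Collagens were also found above their highest level in the 4 classes, in both libraries, in barcodes outside these classes. Macrophage barcodes had Col11a2 at 5.38 and 2.49 CPM from 12 and 11 UMIs. Barcodes that met no class rule and had at least 0.05% of UMIs from the duct markers Krt19, Sox9 and Muc1 together (73 and 89, called keratin barcodes) had Col9a3 at 4.16 and 7.13 CPM from 6 and 10 UMIs.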

How the results depend on the processing

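Values are log2 ratios of GKO to WT, or of fibrillar to type IV UMIs as the mean of the libraries, which were 3.62, 0.18, −6.55 and 1.10 in stromal, pericyte, endothelial and endocrine barcodes; counts of members past 2-fold were 5, 4 and 1 in the first 3 classes. No paired analysis was possible because each genotype was 1 pool, and no library could be left out. With barcodes meeting more than 1 rule kept, fibrillar chains gave −0.12 in stromal and 0.37 in pericyte barcodes, type IV chains 0.051, −0.31 and −0.074 in stromal, pericyte and endothelial barcodes, all collagens 0.35 in endocrine barcodes, the fibrillar to type IV ratios 3.5, 0.63, −5.13 and 1.41, the endothelial count 9, and Col1a1 0.12 in pericyte and 0.59 in endocrine barcodes. With thresholds 2 times as high, fibrillar chains gave −0.24 in stromal and 0.51 in pericyte barcodes, type IV chains −0.048 in stromal barcodes, all collagens −0.024 in endocrine barcodes, the ratio 0.41 in pericyte and 1.24 in endocrine barcodes, the endothelial count 0 and Col1a1 0.057 in pericyte barcodes. With equal weight per barcode, fibrillar chains gave −0.22 in stromal and 0.14 in pericyte barcodes, type IV chains −0.015 in stromal and −0.14 in endothelial barcodes, all collagens −0.055 in endocrine barcodes, the ratios 3.47, −0.16, −7.02 and 1.49, and the pericyte count 2. With every deposited barcode, fibrillar chains gave −0.20 in pericyte barcodes. With hormone limits of 25% in endocrine and 2% in other barcodes, they gave −0.13 in stromal barcodes, all collagens −0.20 and the ratio 0.93 in endocrine barcodes. Without the highest doublet scores, all collagens gave 0.12 and Col13a1 0.026 in endocrine barcodes, and the endothelial count was 2. Totals without hormone genes gave −0.35 and TMM scaling −0.36 for all collagens in endocrine barcodes, and TMM −0.16 for fibrillar chains in stromal barcodes. With no minimum of UMIs the counts were 11, 12 and 16, and with 50 UMIs the stromal count was 2. Among alternatives chosen after seeing the data, stromal barcodes without mesothelial markers gave −0.072 for fibrillar chains, and leaving out the 20 endocrine barcodes of each library with most fibrillar UMIs gave 0.067 for all collagens, 0.71 for the ratio and 0.25 for Col1a1. The cause of these shifts was not tested. The other 77 values of summary results moved by less than their counting interval or, for counts, by up to 1.5 times. Depth limits the members under 20 UMIs in a class, for which no ratio was counted.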

Other observations

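Macrophage barcodes held Col14a1 at 54.2 CPM in WT and 46.8 CPM in GKO, in 67 of 195 barcodes (34.4%, 27.7 to 41.5) and 128 of 448 (28.6%, 24.4 to 33.0). Their Col14a1 UMIs per Col1a2 UMI were 30.2 (11.5 to 113) and 8.28 (5.45 to 13.1), against 0.134 and 0.122 in stromal barcodes, and Col14a1 was found in 0.526% and 0% of endothelial barcodes (up to 1.53% and 0.856%). Keratin barcodes held Col4a5 at 19.4 and 37.8 CPM, Col4a1 at 19.4 and 31.4 CPM, Col4a3 at 10.4 and 16.4 CPM, Col4a2 at 7.62 and 15.7 CPM, Col4a4 at 6.93 and 20.0 CPM and Col4a6 at 1.39 and 2.14 CPM.

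Stromal barcodes with mesothelial markers (5 in WT and 26 in GKO) had Col6a5 at 321 and 182 CPM and Col18a1 at 310 and 328 CPM, against 33.3 and 87.2 CPM and 42.9 and 61.7 CPM in the other stromal barcodes. Col14a1 was at 122 and 2.64 CPM in them, from 11 UMIs and 1 UMI, against 726 and 694 CPM.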
